A study of Drosophila melanogaster with 4 samples.

Results

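HP1b-enriched regions were described along 3L, the left arm of Drosophila melanogaster chromosome 3, in nuclei of adult fly heads. The regions are the 1427 enrichment entries of the combined list of the study that lie on 3L and start no later than position 22543557, out of 7807 enriched regions on all sequences (18.3%). The 2 Mb next to the centromere, with a further 58 regions of the arm, were left out. Chromatin immunoprecipitation followed by sequencing was carried out on the wild-type strain Oregon-R, at the stage given as Mixed Adult. The groups were 2 immunoprecipitations with the HP1b antibody Q4114 and 2 inputs of chromatin without antibody, and all 4 samples share the strain, the genotype and the source of nuclei. Whole heads hold neurons, glia, eye, muscle and fat cells together, so a region listed here may come from any of them, and the labels do not give the sex of the flies.

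HP1b belongs to the heterochromatin protein 1 family. Its members carry a chromodomain, which in HP1a binds histone H3 methylated on lysine 9, and a chromoshadow domain through which they pair with each other and recruit partner proteins. In flies HP1a is best known from pericentric heterochromatin and telomere caps, HP1c from euchromatin, and HP1b from both. Arm 3L runs from the telomere, at position 1, towards the centromere, so the stretch described here is mostly the gene-bearing euchromatic part of the arm.

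Each replicate had its own list of enriched clusters. Over the 22543557 bp of the stretch, replicate 1 listed 1231 clusters and replicate 2 listed 1192. The combined list comes from the replicate set, and nothing read here says how it was made. No list holds read counts, so depth is unknown. The inputs have no list, and no input background can be set beside any value. Separate fly collections for the replicates are not mentioned in the labels, so the spread between them may be technical. The head origin could not be checked against marker genes, since no gene annotation of FlyBase release 5 was used here, and for the same reason no gene or sequence is given for any region.

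HP1b clusters covered 14.0% ± 0.480 of the 3L stretch (SD, n = 2), with 14.4% in replicate 1 and 13.7% in replicate 2. They numbered 53.7 ± 1.22 per Mb and had a mean width of 2607 ± 30.0 bp (SD, n = 2 each). In coverage by all listed clusters, arm 3L thus lay close to the other autosomal arms and well under X. Within each replicate its coverage was 0.923 times that of 2L, 2R, 3R and X pooled, each without the 2 Mb at its centromere end. Against the 3 autosomal arms alone the ratio was 0.997 ± 0.00394 (SD, n = 2). For clusters at or above the median of the authors' score in their list, the ratio to 2L, 2R, 3R and X was 0.831 ± 0.0182 (SD, n = 2). The ratio to the autosomal arms alone was not computed for them. The median score on 3L was 0.964 in replicate 1 and 0.988 in replicate 2, below each other long arm in both. The nearest were 2L in replicate 1 (0.974) and 2R in replicate 2 (1.00). Both of these differences were smaller than the SD between the replicates of 3L, 0.0171.

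The separate arms differed from 3L in a direction that was the same in 2 of 2 replicates. Coverage of 3L was above that of 2L, by 0.655 percentage points in replicate 1 and 0.626 in replicate 2, and above that of 3R, by 0.621 and 0.652 in the same order. Coverage of 3L minus that of 2R was -1.86 points in replicate 1 and -1.59 in replicate 2, and minus that of X it was -4.76 and -4.79 points. The differences from 2L and 3R exceeded the SD of the replicates of either arm, but by little, since replicate 1 covered more of every arm. Taken within a replicate they varied by an SD of 0.0203 and 0.0219 points. By mean width, clusters of 3L were the narrowest of the 5 arms in both replicates, at 2607 ± 30.0 bp. The mean was 2680 ± 3.62 bp on 2L, 2628 ± 45.4 bp on 2R, 2668 ± 14.5 bp on 3R and 2900 ± 18.7 bp on X (SD, n = 2 each). The difference in mean width from 2R was smaller than the spread between replicates. By median width, 2L was narrower than 3L in replicate 1 (2267 against 2272 bp) and wider in replicate 2 (2271.5 against 2247 bp). Arm 3L had more clusters per Mb than 2L (49.9 ± 1.65) and 3R (50.1 ± 1.61) and fewer than 2R (59.9 ± 1.51) and X (64.8 ± 1.18) (SD, n = 2 each). With 2 replicates an exact sign permutation test cannot go below p = 0.5, so no test was made on these differences.

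**Figure D1:**
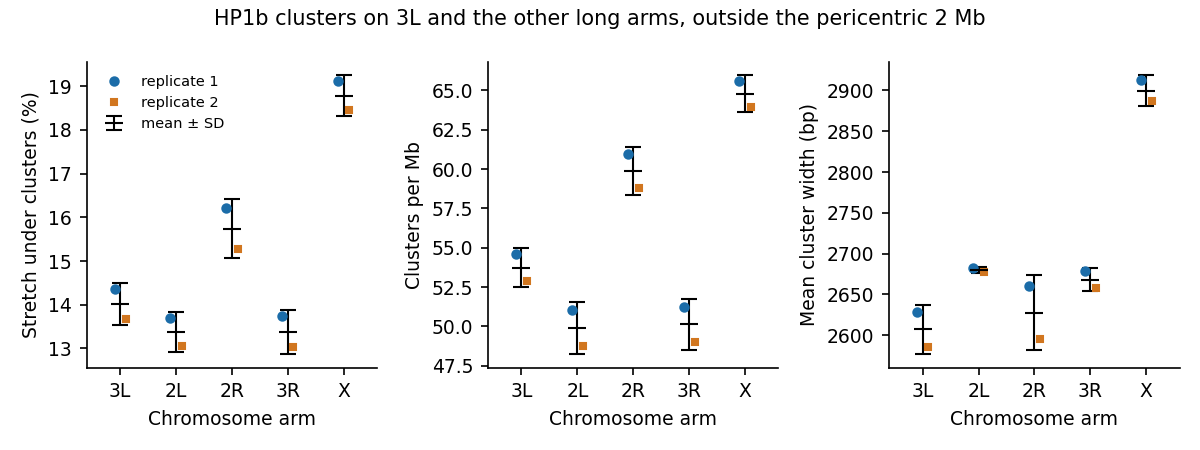
Coverage (percent of the stretch), clusters per Mb and mean cluster width (bp) for 3L and the other long arms, with circles for replicate 1, squares for replicate 2 and bars for the mean ± SD (n = 2); the vertical axes do not start at 0. Coverage of 3L, at 14.4% and 13.7%, lies above 2L and 3R and below 2R and X, and its mean cluster width is the smallest.

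Widths between 2 and 2.5 kb were the most frequent on 3L and held 38.9% of clusters in replicate 1 and 41.0% in replicate 2. The median was 2272 bp in replicate 1, where the interquartile range ran from 2003 to 2824 bp. Replicate 2 had a median of 2247 bp and a range of 1995 to 2752 bp. The narrowest clusters had 1302 and 1303 bp. Broad clusters of 5 kb or more were few, with 60 in replicate 1 and 56 in replicate 2, or 4.79% ± 0.125 (SD, n = 2). That share was 5.44% ± 0.450 on 2L, 3.87% ± 0.580 on 2R, 4.77% ± 0.173 on 3R and 9.63% ± 0.413 on X (SD, n = 2 each). In the combined list 75 regions of 3L reached 5 kb. All 75 overlapped clusters of both replicates, against 75% of the combined regions of all sequences. Their median score was 1.63, against 0.699 for the other regions of 3L. Of the 3L regions at or above the median score of the combined list, 680 of 681 overlapped both replicates. The part of width in this match was not tested. Together the 75 broad regions held 13.0% of the covered bases. They were scattered over 50 of the 90 full windows of 250 kb, with at most 4 in any window.

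Neighbouring clusters of 3L stood at very unequal distances. The median gap was 6996 ± 194 bp (SD, n = 2), while the mean gap was 15829 ± 407 bp (SD, n = 2). A gap of 1 kb or less followed 150 clusters in replicate 1 and 141 in replicate 2, and gaps of 5 kb or less made up 40.8% ± 0.298 of all gaps (SD, n = 2). At the other extreme, 92 gaps of replicate 1 and 93 of replicate 2 were longer than 50 kb. These few gaps, 7.48% and 7.81% of all, took up 33.6% and 36.6% of the stretch. The median gap of 3L was longer than that of each other long arm in both replicates, by 93 and 194 bp against 2L, by 513 and 536 bp against 2R, by 290.0 and 593 bp against 3R, and by 1786 and 2047 bp against X. The mean difference from 2L, 143 bp, was smaller than the spread between the replicates of 3L. By mean gap the order was another. It was longer than on 3L in both replicates on 2L (17339 ± 692 bp) and 3R (17166 ± 652 bp). On 2R (14074 ± 461 bp) and X (12525 ± 292 bp) it was shorter (SD, n = 2 each). Gaps over 50 kb took up 35.1% ± 2.14 of 3L, against 37.4% ± 2.45 of 2L and 39.7% ± 2.42 of 3R. They took up 30.0% ± 2.23 of 2R and 30.3% ± 1.65 of X (SD, n = 2 each).

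**Figure D2:**
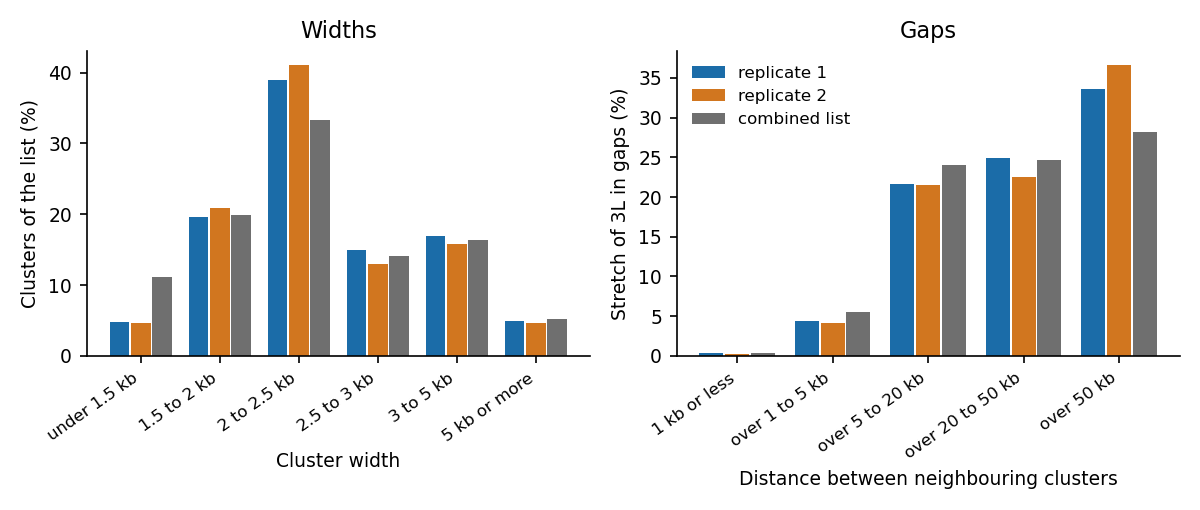
Left, percent of 3L clusters in each width class; right, percent of the 3L stretch lying in gaps of each length class, with a bar each for replicate 1, replicate 2 and the combined list. Widths of 2 to 2.5 kb form the tallest class, and gaps over 50 kb take up 33.6% and 36.6% of the stretch in replicates 1 and 2.

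Coverage was uneven at the scale of 250 kb. Over the 90 full windows it ran from 1.79% to 30.7% in replicate 1, with a median of 14.1%, and from 0.974% to 29.8% in replicate 2, with a median of 13.2%. No window was without a cluster in either replicate. The remaining 43557 bp before the limit of the stretch held none. The coefficient of variation over windows was 44.3% ± 1.11 (SD, n = 2) on 3L, against 52.5% ± 1.79 on 2L, 38.8% ± 0.599 on 2R, 46.7% ± 1.65 on 3R and 44.2% ± 1.56 on X (SD, n = 2 each). Windows covered over more than 20% in both replicates numbered 14 of 90 on 3L, against 11 of 84 on 2L, 17 of 76 on 2R, 15 of 103 on 3R and 29 of 81 on X. Windows under 5% in both numbered 6 of 90 on 3L, against 9 of 84 on 2L, 4 of 76 on 2R, 2 of 103 on 3R and 3 of 81 on X. The most covered 31 windows held just over 50% of the covered bases.

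**Figure D3:**
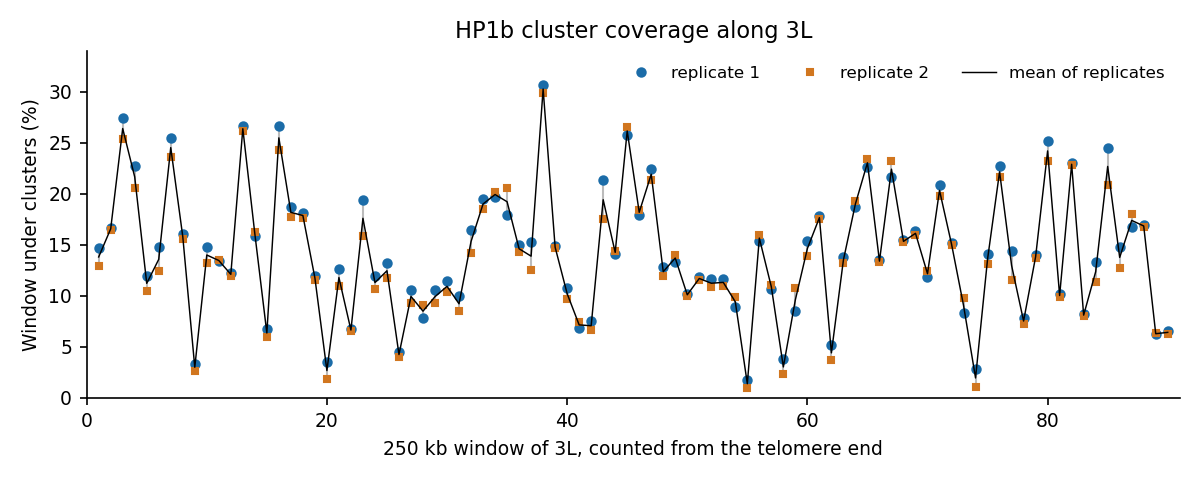
Percent of each 250 kb window of 3L under HP1b clusters, in order from the telomere end, with circles for replicate 1, squares for replicate 2 and a line for their mean. The highest window reaches 30.7% and 29.8%, the lowest 1.79% and 0.974%, and the replicates differ by at most 3.78 percentage points in any window.

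The coverage of a window went more closely with the number of its clusters than with their mean width. Across the 90 windows, coverage followed the number of clusters with Spearman's rho 0.959 in replicate 1 and 0.955 in replicate 2, and the mean width with 0.426 and 0.285. Windows held 2 to 27 clusters in replicate 1 and 1 to 28 in replicate 2. Adjacent windows were only weakly alike, with rho 0.203 and 0.226 over 89 pairs, and windows a further step apart gave −0.00408 and −0.0106 over 88 pairs. These are descriptions across windows of the same library, and a window's coverage contains its cluster number and width, so no p is given.

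The most covered window, from 9250001 to 9500000, had 30.7% in replicate 1 and 29.8% in replicate 2, with 22 and 24 clusters. Next came 500001 to 750000, at 27.4% in replicate 1 and 25.4% in replicate 2. The window from 3000001 to 3250000 had 26.6% and 26.1%, that from 11000001 to 11250000 had 25.8% and 26.5%, and that from 3750001 to 4000000 had 26.7% and 24.3%, replicate 1 before replicate 2. These windows differed in the mean width of their clusters. In the first of them clusters were wide, averaging 3485 bp in replicate 1 and 3108 bp in replicate 2. The one from 11000001 held somewhat more and narrower clusters, 26 and 28 of 2502 and 2387 bp on average. Both windows lay above the median number per window, 13.5 in replicate 1 and 13 in replicate 2.

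The emptiest windows were 13500001 to 13750000, covered over 1.79% in replicate 1 and 0.974% in replicate 2, and 18250001 to 18500000, with 2.82% and 1.07%. They were followed by 4750001 to 5000000 (3.50% and 1.85%), 2000001 to 2250000 (3.35% and 2.63%) and 14250001 to 14500000 (3.76% and 2.29%). Each of the 5 held at most 4 clusters in a replicate. The largest step between neighbours lay at 3750000, where 6.35% on the telomere side met 25.5% on the centromere side (means of 2 replicates). The window of highest coverage was itself flanked by windows of 13.9% and 14.8%.

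The replicates gave nearly the same profile. Over the 90 windows of these 2 libraries, Pearson's r was 0.981 and Spearman's rho 0.983. Replicate 1 was higher in 69 windows and replicate 2 in 21, and the median difference was 0.857 percentage points. The largest was 3.78 points, in the window from 10500001 to 10750000, with 21.3% in replicate 1 and 17.5% in replicate 2. A difference of over 1.5 times occurred in 4 windows, and all 4 belong to the 5 emptiest just named.

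On a coarser scale, 2 stretches of 2.5 Mb were poorer in HP1b clusters than the others. The 9 consecutive stretches from the telomere end were covered over 16.0% ± 1.02, 15.0% ± 0.491, 10.3% ± 0.771, 16.6% ± 0.516, 15.0% ± 0.288, 9.88% ± 0.0878, 15.7% ± 0.0183, 14.1% ± 0.637 and 13.7% ± 0.536 (SD, n = 2 each). The third, from 5000001 to 7500000, and the sixth, from 12500001 to 15000000, lay below every other stretch in both replicates. They held 109 and 91 clusters in replicate 1, and 101 and 91 in replicate 2, against 131 to 164 and 126 to 152 in the other stretches.

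The fifth stretch, from 10000001 to 12500000, was well covered by clusters of low score. Its 153 and 149 clusters had median scores of 0.743 in replicate 1 and 0.695 in replicate 2, against 0.910 to 1.05 and 0.949 to 1.16 in the other stretches. They were also narrower, with medians of 2118 and 2103 bp, against 2246 to 2398 bp and 2198 to 2377 bp elsewhere. The score is the authors' value for each region, of unstated formula and scale, and it was used only to rank, filter and describe regions within a list. This stretch was singled out after its values were seen.

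The strongest region of 3L by score in the combined list spanned 12564413 to 12566886 and ranked 1 on the arm in each replicate. It stood alone, with the nearest regions 33053 bp away on the telomere side and 53504 bp on the centromere side. The second, from 15974881 to 15977351, ranked 2 in replicate 1 and 4 in replicate 2. The third, from 4552460 to 4555494, ranked 8 and 2, and the fourth, from 5131334 to 5133800, ranked 5 and 3. Ranks 5 to 8 went to regions starting at 21720641, 2261573, 16579189 and 198070, which ranked 3 to 7 in replicate 1 and 5 to 8 in replicate 2. The region at 9434279 was ninth in the combined list and ninth in replicate 1, and it fell within a wider cluster of 7055 bp in replicate 2 that ranked 64. The tenth began at 20294129 and ranked 12 and 9. All 10 were of ordinary width, from 2.40 to 3.56 kb, and 5 of them lay on the telomere side of the middle of the stretch.

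None of these 10 was among the 10 widest. The widest region spanned 10.4 kb from 695879 to 706304 and was a single cluster in replicate 1 and 2 adjoining clusters in replicate 2. The region from 16037929 to 16048202, 10.3 kb wide, showed the same division. The third, from 9411606 to 9421192, measured 9.59 kb and was a single cluster in both replicates. The other 7, 7.54 to 9.07 kb in width, started at 21034837, 9683676, 14747522, 2583828, 13466879, 539287 and 13910059. Combined-list scores of the 10 widest ran from 1.11 to 2.65, against 3.49 to 4.39 for the 10 strongest. Over all 1427 regions score and width were related with Spearman's rho 0.763, a description across regions of the same list.

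Clusters also formed short runs. Joining regions 1 kb or less apart turned the 1427 regions into 1237, of which 172 were runs that held 25.4% of all regions. No run held more than 4 regions. The longest covered 14.7 kb from 9448188 to 9462857 with 3 regions, and the next 13.1 kb from 9411606 to 9424663 with 2. Both lie in the most covered window, and both were matched by as many clusters in each replicate. Then followed 16572325 to 16585286 (13.0 kb), which contains the seventh strongest region, 8048201 to 8060209 (12.0 kb) and 15090311 to 15102119 (11.8 kb). The last was the faintest, with 4 regions scoring 0.434 to 0.956, and it too had 4 clusters in each replicate.

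Isolated regions scored lower than those with close neighbours. In replicate 1 the median score was 1.07 for clusters with a neighbour within 1 kb, 1.01 for those with the nearest over 1 kb and up to 5 kb away, 0.874 up to 20 kb and 0.712 beyond. In replicate 2 the same classes had 1.03, 1.07, 0.863 and 0.824, so the order of the first pair differed. The last class held 72 and 69 clusters. In the combined list the share of regions overlapped by both replicates was 80.9%, 76.5%, 72.8% and 61.8% in the same order of distance. The strongest region of the arm belongs to the most isolated class. Score and width moved together here too, as the median width in replicate 1 was 2363 bp in the closest class and 2184 bp in the most isolated, and the part of width in this order was not tested.

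Long stretches of 3L carried no cluster in any of the 3 lists. Such shared gaps of over 50 kb numbered 81 and summed to 6.23 Mb, or 27.6% of the stretch, and 15 of them exceeded 100 kb. The longest, 176.2 kb from 13661382 to 13837559, and the fourth, 151.8 kb from 13507553 to 13659357, adjoin. They are separated by a single cluster of 2024 bp in replicate 1 (score 0.552, at percentile 20.7 of its list) that replicate 2 did not list, and by the region of the combined list that overlaps it. Replicate 2 therefore had an unbroken gap of 330.0 kb there, from 13507536 to 13837568. The cluster at the telomere side of this gap was among the strong ones of 3L, as the region from 13505091 to 13507552 ranked 13 of 1427.

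The second longest shared gap ran for 167.8 kb from 20535822 to 20703633 and the third for 154.6 kb from 6325844 to 6480460. A further pair of neighbours lay on the centromere side of 18 Mb. These were the gap of 130.8 kb from 18301328 to 18432126 and one of 111.1 kb from 18185709 to 18296780. They were divided by a single cluster in replicate 1 and by none in replicate 2. The combined list had regions from 18296930 to 18299519 and from 18299876 to 18301327 between them, the latter found in neither replicate. Replicate 2 had a gap of 272.3 kb there, from 18180225 to 18452564. The remaining shared gaps among the longest 10 began at 1975604, 4841115, 15357217, 5380033 and 22282823 and were 117.1 to 139.4 kb long. The last of these ended at the final region of the stretch, 22399930 to 22402474, which ranked 93 of 1427. Beyond it 161792 bp passed before the next region, at 22564267 and outside the limit, with a score of 0.742 against 2.53 for the last region inside.

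At the telomere end the first 50 kb of 3L were free of clusters in all 3 lists. In replicate 1 the outermost clusters lay at 50984 to 52318 and 52407 to 53746, with scores of 0.957 and 0.587. Replicate 2 listed nothing before 125195. The first 100 kb were thus covered over 2.68% in replicate 1 and 0% in replicate 2, so any signal there rests on replicate 1. The combined list began with a region at 50977 to 53727, and its next 4 regions, from 54444 to 124230, overlapped no cluster of either replicate and were 1001 to 1222 bp wide. One of these, from 118419 to 119419, had the highest score (1.31) of the regions of 3L found in neither replicate.

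**Figure D4:**
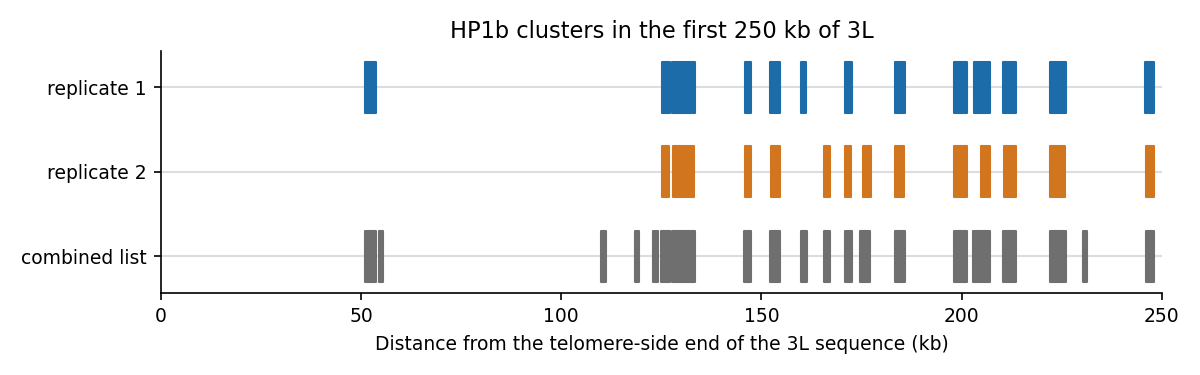
Enriched regions within 250 kb of the telomere-side end of the 3L sequence, drawn to scale as bars for replicate 1, replicate 2 and the combined list. The first 50 kb are empty in all lists, and clusters of both replicates are present from 125195 bp onward.

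Past this empty end, clusters lay at 125120 in replicate 1 and at 125195 in replicate 2, and coverage grew from there. Replicates 1 and 2 covered 18.8% and 17.0% of the third 50 kb, 19.7% and 22.8% of the fourth and 29.4% and 24.8% of the fifth. The eighth strongest region of the arm, from 198070 to 201249, lies here and was listed in both replicates within 30 bp of that start. The first 250 kb as a whole had 13.8% ± 1.22, which differed from the remaining stretch, at 14.0% ± 0.472, by less than the spread between replicates (SD, n = 2 each). The first 1 Mb had 19.6% ± 1.06, against 13.8% ± 0.453 for the rest (SD, n = 2 each). On 2L the first 250 kb had 19.0% ± 1.56 and on X 11.4% ± 0.0190, while the last 250 kb had 7.66% ± 0.723 on 2R and 4.17% ± 0.922 on 3R (SD, n = 2 each). The stretch free of clusters at the very end was longer on 3L than on the other arms. It measured 50983 and 125194 bp on 3L in replicates 1 and 2, against 17602 and 17589 bp on 2L, 4930.0 and 4803 bp on 2R, 9693 and 9684 bp on 3R and 49 and 13285 bp on X. How much telomeric or repeated sequence each arm of the assembly holds at its end was not determined here.

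Of the 1427 regions of 3L, 1084 (76.0%) overlapped clusters of both replicates by at least 1 bp, which is near the 75% of all sequences together. It was 76.9% on 2L, 78.2% on 2R, 78.3% on 3R and 73.1% on X. A further 121 regions of 3L overlapped replicate 1 only, 82 replicate 2 only and 140 (9.81%) neither. Median score and width were 1.04 and 2452 bp for regions in both. Those in replicate 1 only had 0.270 and 1733 bp, those in replicate 2 only 0.231 and 1717 bp, and those in neither 0.303 and 1251 bp. Of those 140, 79 measured less than 1301 bp, which is the width of the narrowest replicate cluster on any sequence, found on 2L.

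The match between lists followed the score, but score and match are not independent. The score is that of the combined list, which comes from the same replicate set as the lists it was matched with. The regions were put in 4 classes of nearly equal size by score. In the lowest class, 94 of 357 (26.3%) were in both replicates. In the second class 278 of 357 (77.9%) were, in the third 355 of 356, and in the highest 357 of 357. By position, the share in both ran from 69.8% between 17500001 and 20000000 to 82.4% between 20000001 and 22500000.

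**Figure D5:**
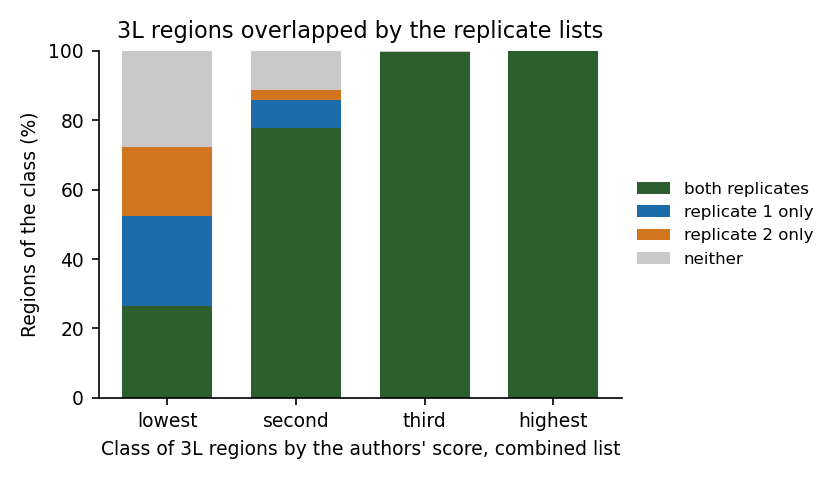
Percent of 3L regions of the combined list overlapped by both replicates, by a single replicate or by neither, in 4 equal classes of the authors' score. The share in both goes from 26.3% in the lowest class to 357 of 357 regions in the highest. Score and match are not independent, as the combined list comes from the same replicate set.

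Where regions matched, their borders matched closely. Of the 1084 regions in both replicates, 1049 had a single cluster in each. Among these the starts of the replicates differed by a median of 41 bp and the ends by a median of 42 bp, and 90% of starts differed by at most 231 bp. Cluster widths of the replicates were related with Spearman's rho 0.900 and scores with 0.950 across these 1049 regions. Only 36 regions of 3L were split into 2 clusters in at least 1 replicate, 8 of them in both. Directly compared, 1099 of 1231 replicate 1 clusters (89.3%) overlapped a replicate 2 cluster and 1107 of 1192 replicate 2 clusters (92.9%) a replicate 1 cluster, with 2.85 Mb shared.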

How the data were processed

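Regions were taken from 3 deposited lists, 1 for each HP1b ChIP sample and 1 for the replicate set. The aligner was Bowtie 0.12.7 (per the submitters' processing notes) and the build FlyBase release 5 (per the file headers). The labels and headers name no caller, threshold or use of the inputs. The lists give start, end and a score per region, as deposited by the authors. The 4 samples were grouped by their titles. Positions are 1-based, a single row starting at 0 on another arm was set to 1, and blank lines were skipped. Coverage is the percent of bases under clusters. A cluster was counted in the window, stretch or arm where it starts; clusters of a list never overlapped. Overlap means at least 1 bp. Windows of 250 kb and stretches of 2.5 Mb were counted from position 1, and on 2R and 3R windows were counted from the distal end.

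Named by rule were the 10 regions of highest score, the 10 widest, the 5 windows of highest and of lowest coverage, the 10 longest gaps shared by all lists, the 5 longest runs joined at gaps of 1 kb or less, the first 5 regions, the last region and every depletion entry. The regions and these rules were chosen with earlier results of these data known, and other positions named were chosen after their values were seen. Values are the mean and SD of 2 replicates. No test was made. The inputs have no list here, so they entered no comparison. Alternatives were the combined list, the higher-scoring clusters, each replicate alone, other windows, limits, overlaps and joined clusters. Interval functions were tested on simulated data. Python 3.11.15, numpy 2.4.6, pandas 2.3.3, scipy 1.17.1 and matplotlib 3.10.9 were used. Genes of release 6 were not used, since coordinates were not converted.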

Additional observations from a re-analysis of the deposited data

Results flagged for a closer look

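The combined list holds 3 regions of 3L typed as significant depletion of HP1b signal, which enter no comparison above. The region from 6096080 to 6097911 (score -0.0520) overlaps a cluster that replicate 1 lists as enriched, from 6096104 to 6097678, at percentile 0.763 of its scores. The region from 11147994 to 11149500 (score -0.00856) overlaps an enriched cluster of replicate 2 at percentile 2.98, and the region from 12734030 to 12735851 (score -0.0873) overlaps one of replicate 2 at percentile 0.0464. In each case the other replicate lists no cluster there, and the nearest region of the combined list typed as enriched lies 6944, 7609 and 1564 bp away, in the order given. With no values for the inputs, no control level can be set beside these 3 regions.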

How the results depend on the processing

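With the combined list in place of the replicate lists, coverage of 3L was 16.3%, its ratio to the other arms 0.918, clusters per Mb 63.3, coverage of the first 250 kb 19.0%, the coefficient of variation over windows 41.5% and the median gap 6006 bp. With clusters scoring at or above the median of their list the same values were 7.72%, 0.831, 24.6, 6.21%, 54.6% and 14514.5 bp. Leaving out clusters can only lower coverage, so these moves follow in part from the setting. The ratio to autosomal arms alone was 0.997, since X is left out of it. Clusters joined at gaps of 1 kb gave 47.3 per Mb and a median gap of 8651 bp. The first 500 kb had 15.2% and the first 1 Mb 19.6%. The coefficient of variation was 65.1% with windows of 100 kb, 34.6% with 500 kb and 45.6% with windows shifted by 0.5 of their length. The share of regions in both replicates was 99.9% for the higher-scoring regions and 81.5% for those as wide as the replicate lists allow, against 76.0%. Leaving out 1 or 3 Mb next to the centromere moved coverage by less than the SD of the 2 replicates. A stricter overlap, of 50% of the region, gave a share in both of 75.5%, and that share has no replicate spread to set beside it. Where no construction explains a move, the cause was not tested. Without replicate 1 or replicate 2 in turn, coverage was 13.7% to 14.4%, the ratio 0.923, clusters per Mb 52.9 to 54.6, the first 250 kb 12.9% to 14.7%, the variation 43.5% to 45.0% and the median gap 6859 to 7133 bp. The share in both cannot be computed without a replicate. No paired analysis was possible because the like-numbered inputs have no list here. Unknown read depth limits statements on weak regions.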

Other observations

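Regions that border a gap of over 50 kb had lower median scores than the other regions of 3L in each replicate. There were 169 such clusters in replicate 1, with a median score of 0.831 against 0.978 for the others, and 173 in replicate 2, with 0.847 against 0.995. They were also narrower, with median widths of 2147 against 2295.5 bp in replicate 1 and 2191 against 2264 bp in replicate 2. The part of width in the lower scores was not tested. Of the bordering clusters, 73 of 169 in replicate 1 and 83 of 173 in replicate 2 reached the median score of the 3L clusters of their list. By definition about as many of all 3L clusters reach that median as fall below it, and replicate 2 lay near that share. Among those that reached it was the cluster that starts at 13505106 in replicate 1 and 13505100 in replicate 2. Clusters with a gap of over 50 kb on each side numbered 15 in replicate 1 and 13 in replicate 2. The windows with most broad regions, 4 of 5 kb or more each, began at 13750001, 16500001 and 19750001, and the first of them adjoins the emptiest window of the arm.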
